A study of Mus musculus with 6 samples.

Results

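The vascular miRNAs miR-126, miR-143 and miR-145 were measured by small-RNA sequencing of the mouse left ventricle. The 4 entries mmu-miR-126-3p, mmu-miR-126-5p, mmu-miR-143 and mmu-miR-145, written below without the species prefix, were taken by name from the 698 miRNAs that the deposited tables list. Left ventricles came from wild-type mice (WT, n = 3) and from mice labelled aMHC719/+, which carry 1 mutant allele of Myh6 with the change R719W (R719W, n = 3). The α-myosin heavy chain that Myh6 encodes is the motor protein of the mouse ventricle, and its mutations can cause hypertrophic cardiomyopathy (HCM), an inherited disease with thickened heart muscle. WT and R719W mice alike were on cyclosporin, which blocks calcineurin, for 3 weeks, so genotype was compared under cyclosporin only. Age, sex and strain of the mice are not known here.

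MicroRNAs are short RNAs that guide repression of messenger RNAs, mainly through the seed, the bases 2 to 8 from the 5′ end. miR-126 is made in endothelial cells, the lining of blood vessels, from an intron of Egfl7, a gene for a secreted endothelial protein. Its 3p arm is known to repress Spred1 and Pik3r2, inhibitors of signalling by vascular endothelial growth factor, and its 5p arm is known to repress the Notch ligand Dlk1. miR-143 and miR-145 are made from a shared transcript in vascular smooth muscle under control of serum response factor and myocardin. miR-145 is known to repress Klf4, a factor that opposes the contractile state of smooth muscle.

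The arms of miR-126 are shown because both are members and come from opposite sides of the same precursor, so that their reads can be compared within a library. In the first pair of lines capitals mark the seed, and in the hairpin capitals mark both mature arms, the 5p arm first.
miR-126-3p: tCGTACCGtgagtaataatgcg
miR-126-5p: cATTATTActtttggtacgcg
Mir126a hairpin: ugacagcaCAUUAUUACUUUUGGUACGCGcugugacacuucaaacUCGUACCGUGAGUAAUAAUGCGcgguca
The mature sequences are those of the deposited tables, and the hairpin is that of RefSeq (GRCm38.p6), which names it Mir126a. It lies at chr2:26591357-26591429 on the plus strand, with the 5p arm at 26591365 to 26591385 and the 3p arm at 26591402 to 26591423. Within Egfl7 (26580014 to 26593120, GENCODE M21 on GRCm38), the hairpin was intronic in 8 of the 9 annotated transcripts that span it, including all 7 protein-coding ones. No other of the 698 entries had the seed of any of the 4 members. The closest other entry differed from its member by 7 to 9 single-base edits over the full mature sequences. How reads were assigned between entries is not known here.

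Libraries held 765425 to 1192020 reads on listed miRNAs, and 181 of the 698 entries, all 4 members among them, had enough reads to be tested. The defining miRNAs of cardiomyocytes (miR-1, miR-133, miR-208 and miR-499) took 56.1% to 65.3% of the reads in WT and 48.8% to 58.6% in R719W, with overlap. Of their 5 entries tested, 1 was called, beside 19.9% called over all miRNAs tested. It was miR-499, lower in R719W (log2 fold change −1.14, adjusted p = 0.00808 by edgeR). Of the 5, 1 had a positive log2 fold change, miR-208b at 0.67, and it was not called. Fibroblast markers (miR-199, miR-214 and miR-21) were at 0.0414% to 0.0538% of reads in WT and at 0.190% to 0.348% in R719W, without overlap. Such separation was common, with 74 of the 181 single miRNAs tested (40.9%) free of overlap in TMM-normalised levels. The summed leukocyte markers were at 0.0722% to 0.108% and at 0.115% to 0.134%, again without overlap, but their members did not move one way. miR-142-3p, which held most of these reads, stood at 578 ± 68.8 and 899 ± 192 CPM (SD, n = 3) and was not called. Of the 5 leukocyte entries tested 0 were called higher and 2 lower, miR-150 and miR-342-3p. Over all miRNAs tested, 12.7% were called higher and 7.18% lower. R719W replicate 1 stood apart by its let-7 reads, which were 20.4% of the library against 11.8% and 13.5% in the other R719W libraries. WT replicate 2 had the most let-7 reads in its genotype, at 11.6% against 7.49% and 7.76%. The values of the members and of their ratios are also given without these libraries.

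Neither the endothelial miR-126 arms nor the smooth muscle miR-143 and miR-145 passed the test for a difference between R719W and WT. All 4 members had lower fitted levels in R719W relative to TMM, the scaling used for the levels below, by 0.18 to 0.45 on the log2 scale, and 0 of 4 were called by edgeR, 0 of 4 by DESeq2, and 0 of 4 had an unadjusted p under 0.05 in edgeR (lowest 0.105). Over the 181 miRNAs tested, DESeq2 called 28 (15.5%), and 68 (37.6%) had an unadjusted p under 0.05 in edgeR. Among the 181 miRNAs tested, 36 (19.9%) were called, 23 of them higher (12.7%) and 13 lower (7.18%), by edgeR's quasi-likelihood test at a Benjamini-Hochberg adjusted p below 0.05. That total changed with the libraries used. Leaving out WT replicate 1 or WT replicate 3 cut it to 4, WT replicate 2 to 20 and R719W replicate 3 to 7. Without R719W replicate 1 it rose to 56, and without R719W replicate 2 it was 40. A fit with 1 library less also has less power, and the part of this was not tested. The median log2 fold change of the 4 was −0.30, beside 0.10 over all miRNAs tested, of which 82 had a negative value. In bulk ventricle, fewer vascular cells and less of these miRNAs per cell cannot be told apart. The members' own values follow, in TMM-normalised CPM. This is reads per 1e+06 of the library size times its TMM factor, which ran from 0.830 to 1.22.

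**Figure D1:**
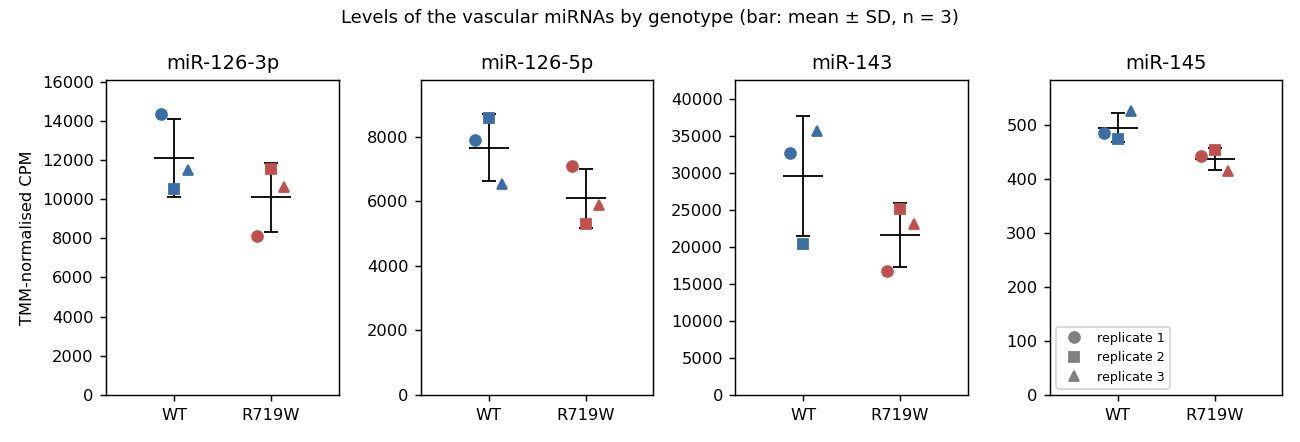
Level of each vascular miRNA (y axis, TMM-normalised CPM from 0) in the 3 WT and 3 R719W libraries, with replicate shown by symbol and the mean ± SD by bars. The genotypes overlap for miR-126-3p, miR-126-5p and miR-143, and the 3 R719W values of miR-145 lie between 414 and 454, below the WT values of 475 to 526.

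miR-126-3p, the arm that restrains Spred1 and Pik3r2, stood at 14319, 10506 and 11458 CPM in WT replicates 1, 2 and 3. It stood at 8120, 11524 and 10608 CPM in R719W replicates 1, 2 and 3. The genotypes overlapped, and the lowest value was that of R719W replicate 1. Means were 12094 ± 1985 CPM in WT and 10084 ± 1762 CPM in R719W (SD, n = 3), a log2 fold change of −0.26 (SE 0.21). The adjusted p of edgeR was 0.348, and the 95% interval ran from a fold of 0.605 to 1.15. The log2 fold change was −0.16 without R719W replicate 1, −0.37 without WT replicate 2 and −0.21 without both, not called in any of them.

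miR-126-5p, the arm that acts on Dlk1, stood at 7897, 8564 and 6530 CPM in WT and at 7080, 5288 and 5896 CPM in R719W. R719W replicate 1, the lowest library for the 3p arm, was the highest R719W library for the 5p arm, and it alone reached into the WT range. Means were 7664 ± 1037 CPM in WT and 6088 ± 911 CPM in R719W (SD, n = 3; adjusted p = 0.210 by edgeR; log2 fold change −0.33 with an SE of 0.19). The fold lay between 0.589 and 1.07 with 95% confidence. Without R719W replicate 1, miR-126-5p was called lower (adjusted p = 0.0331 by edgeR; log2 fold change −0.50 with an SE of 0.18), in a fit that called 56 miRNAs in all. Over every alternative run, its adjusted p ranged from 0.0331 to 0.816. With WT replicate 2 left out as well, it was not called (−0.35, edgeR adjusted p = 0.144), nor with WT replicate 2 alone left out (−0.26).

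miR-143, the most abundant of the members and a miRNA of contractile smooth muscle, stood at 32756, 20458 and 35697 CPM in WT. It stood at 16779, 25142 and 23100 CPM in R719W. WT replicates 1 and 3 were above every R719W library, whereas WT replicate 2 was below R719W replicates 2 and 3. Means were 29637 ± 8084 CPM in WT and 21674 ± 4360 CPM in R719W (SD, n = 3; adjusted p = 0.200 by edgeR; log2 fold change −0.45 with an SE of 0.25). It was −0.34 without R719W replicate 1 and −0.67 without WT replicate 2, not called in either. Its 95% interval was the widest of the 4, from a fold of 0.494 to 1.08. With WT replicate 2 and R719W replicate 1 both left out, a choice made after the values were seen, miR-143 was called lower (adjusted p = 0.0447 by edgeR; log2 fold change −0.49 with an SE of 0.14). That fit called 52 of the 184 miRNAs it tested, 23 of them lower. Over the alternatives run the adjusted p of miR-143 ranged from 0.0447 to 0.649.

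miR-145, the arm that represses Klf4, was far less abundant, at 486, 475 and 526 CPM in WT and 442, 454 and 414 CPM in R719W. The 3 R719W libraries lay below the 3 WT libraries, as they did for 29 of the 181 miRNAs tested (16.0%), while 74 (40.9%) had no overlap in either direction. The difference was small: 495 ± 26.8 CPM in WT and 437 ± 20.3 CPM in R719W (SD, n = 3; adjusted p = 0.431 by edgeR; log2 fold change −0.18 with an SE of 0.17). It was −0.23 without R719W replicate 1, −0.23 without WT replicate 2 and −0.20 without both, not called in any of them. A fold below 0.674 or above 1.15 lay outside its 95% interval. As shares of all reads the genotypes overlapped, and with library totals alone as the scaling the log2 fold change was 0.03. Which member separated the genotypes also changed with the scaling. With library totals without the 5 most abundant miRNAs, miR-145 overlapped, whereas miR-126-5p was lower in R719W without overlap and was not called. The other arm, miR-145*, had 1 read in WT replicate 2, 1 read in R719W replicate 2 and 0 reads in the other 4 libraries, where a count of 0 allows up to 2.83 to 4.06 CPM (3 reads per library).

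**Figure D2:**
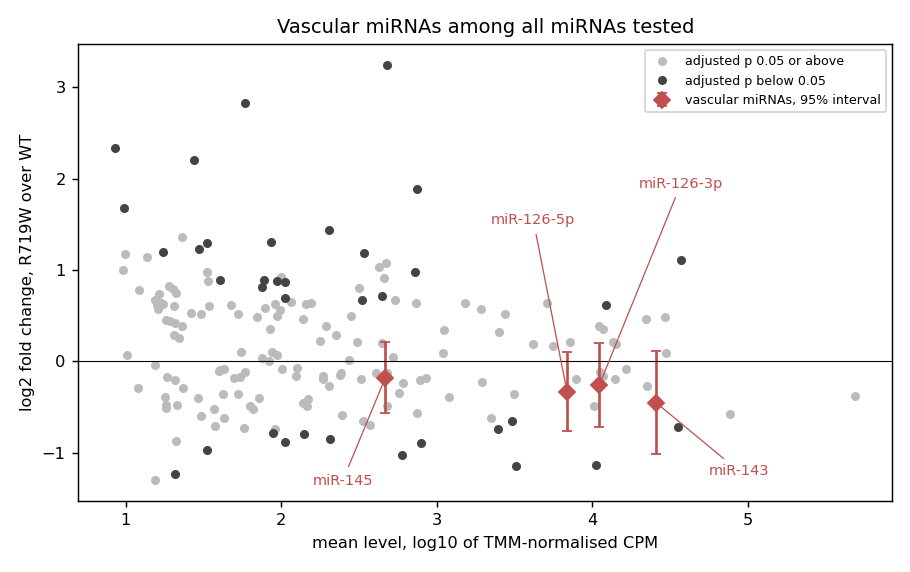
Log2 fold change of R719W over WT (y axis) against mean level (x axis, log10 of TMM-normalised CPM) for the 181 miRNAs tested, each a point, with the vascular miRNAs as diamonds and their 95% intervals. All 4 diamonds lie below 0, at −0.18 to −0.45, and every interval crosses 0.

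The size of the fitted values depended on the scaling, and the direction did so for miR-145 alone among the 4. Relative to TMM, the fold change of a miRNA shifted by a median of −0.11 when DESeq2's size factors were used and by 0.21 when library totals alone were used. With library totals alone the 4 values were −0.03 for miR-126-3p, −0.15 for miR-126-5p, −0.19 for miR-143 and 0.03 for miR-145, none called. Set against the median of all miRNAs tested under the same scaling, miR-143 stood at −0.55 with TMM, −0.55 with size factors and −0.51 with totals. miR-126-3p stood at −0.36, −0.36 and −0.35 in the same order, and miR-126-5p at −0.43, −0.43 and −0.47. miR-145 stood at −0.28, −0.28 and −0.29. A change of scaling moves all miRNAs by nearly the same amount, so these differences from the median were bound to stay alike. They are not separate support for a fall. The fibroblast markers and the summed leukocyte markers had larger shares of the reads in R719W, and their part in these values was not tested.

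In unscaled reads, the 4 miRNAs together took 5.01%, 4.28% and 4.50% of the library in WT and 3.08%, 4.54% and 4.90% in R719W. The low value was R719W replicate 1, and the other R719W libraries lay within the WT range. The miR-126 arms were at 1.85% ± 0.307 of reads in WT, beside 1.75% ± 0.290 in R719W (SD, n = 3). miR-143 and miR-145 were at 2.75% ± 0.440 of reads in WT, beside 2.42% ± 0.680 in R719W (SD, n = 3). Counting error was a small part of this spread for the abundant members. The share of miR-143 varied between libraries by 16.4% of its mean in WT and 28.5% in R719W, against 0.649% and 0.661% from read counting alone. For miR-126-3p these values were 15.2% and 26.1%, against 0.996% and 0.966%. For miR-145, which had 359 to 567 reads per library, they were 8.85% and 9.60%, against 4.91% and 4.59%, so that counting was a larger part of its spread.

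The order of levels was the same in all 6 libraries, with miR-143 first, then miR-126-3p, miR-126-5p and miR-145. By reads, miR-143 ranked 4, 8 and 4 among the listed miRNAs in WT and 12, 5 and 8 in R719W. miR-126-3p ranked between 13 and 21, miR-126-5p between 22 and 25, and miR-145 between 51 and 60. Ligation and amplification favour some sequences over others, so the order is one of reads and not of molecules. Ratios of reads within a library do not depend on the scaling, and 3 of them were compared between genotypes.

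The miR-126-3p arm had more reads than the 5p arm in all 6 libraries, at 1.81, 1.23 and 1.75 reads per 5p read in WT and 1.15, 2.18 and 1.80 in R719W. WT replicate 2 and R719W replicate 1 had the lowest ratio of their genotype. The mean ratio was 1.60 ± 0.323 in WT and 1.71 ± 0.522 in R719W (SD, n = 3), a log2 difference of 0.07 that was smaller than the spread between replicates (exact permutation test, two-sided, p = 0.9; 0.9 adjusted over the 3 ratios). Without R719W replicate 1 the difference was 0.33, and without WT replicate 2 it was −0.11. Counting error of each log2 ratio was 0.021 to 0.024, whereas the ratios of replicates differed by up to 0.93 within R719W.

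miR-143 and miR-145, which share a transcript, were far apart in reads. Their hairpins lie on the same strand of chromosome 18, with 1301 bases between them (GENCODE M21 on GRCm38). There were 67.4, 43.1 and 67.9 miR-143 reads per miR-145 read in WT and 37.9, 55.4 and 55.7 in R719W. WT replicate 2 and R719W replicate 1 again had the lowest value of their genotype. Both WT values were above both R719W values in the remaining 4 libraries. Those 4 were singled out after the values were seen, so their order is no evidence of a genotype difference. Means were 59.5 ± 14.2 in WT and 49.7 ± 10.2 in R719W (SD, n = 3). The log2 ratio of miR-145 to miR-143 was higher in R719W by 0.25 (exact permutation test, two-sided, p = 0.5; 0.9 adjusted), less than the SD between replicates of either genotype. It was 0.067 without R719W replicate 1 and 0.47 without WT replicate 2.

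The smooth muscle miRNA was also set against the endothelial one. There were 2.29, 1.95 and 3.12 miR-143 reads per miR-126-3p read in WT and 2.07, 2.18 and 2.18 in R719W. The R719W libraries were close together, at 2.14 ± 0.0654, and lay inside the WT range, whose mean was 2.45 ± 0.601 (SD, n = 3). The log2 ratio of miR-126-3p to miR-143 differed by 0.17 (exact permutation test, two-sided, p = 0.7; 0.9 adjusted). With 3 against 3 libraries no p below 0.1 is possible for these ratios. The difference was −0.02 without WT replicate 3, 0.14 without R719W replicate 1 and 0.32 without WT replicate 2.

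**Figure D3:**
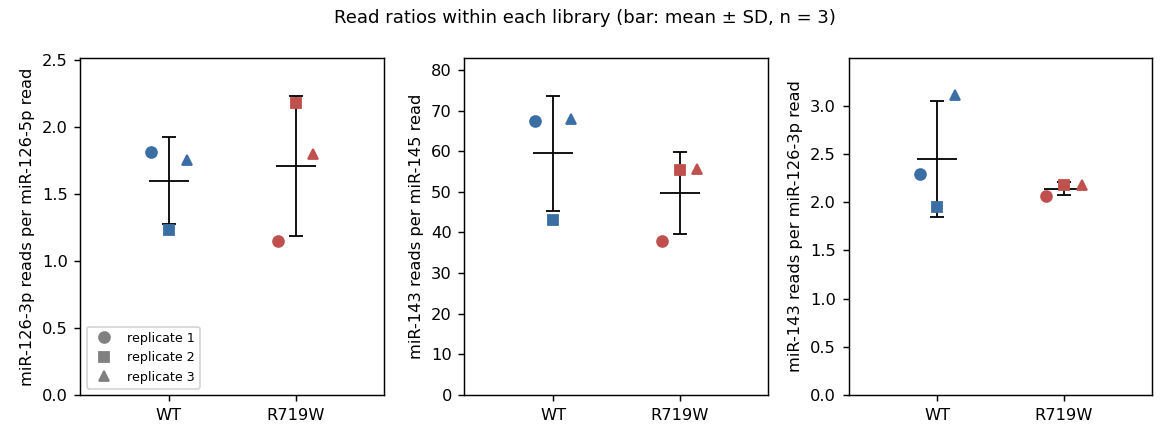
Reads of 1 vascular miRNA per read of another in the same library (y axes from 0), for the 3 WT and 3 R719W libraries, with replicate shown by symbol and the mean ± SD by bars. In the first and second panels WT replicate 2 and R719W replicate 1 are the lowest of their genotype, at 1.23 and 1.15 for the miR-126 arms and at 43.1 and 37.9 for miR-143 per miR-145.

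In WT replicate 2 and R719W replicate 1 the members did not all deviate in the same direction. Against the mean of the other libraries of its genotype, WT replicate 2 was lower in miR-143 and miR-126-3p, with log2 differences in TMM-normalised CPM of −0.74 and −0.29. R719W replicate 1 was lower in both likewise, at −0.52 and −0.45. In the opposite direction, miR-126-5p was higher by 0.25 in WT replicate 2 and by 0.34 in R719W replicate 1. miR-145 differed by −0.09 and 0.03. Over all miRNAs tested, these deviations had the same sign in both libraries for 119 of 181 (65.7%), let-7a, at 0.14 and 1.07, among them. The arms of miR-126 had opposite deviations in both libraries, although they come from the same hairpin, and these are the libraries with the highest let-7 share of their genotype. The part of the libraries' make-up in these deviations was not tested.

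Likeness between miRNAs was measured as the root-mean-square difference of mean-centred log2 levels over the 6 libraries, so that 0 is an identical pattern. For miR-126-3p the 3 closest of 180 miRNAs were miR-26a (0.073), miR-149 (0.11) and miR-133a (0.14). Its own partner arm, miR-126-5p, ranked 55 at 0.33. For miR-126-5p the closest were miR-320 (0.083), let-7d* (0.13) and miR-669a (0.13). For miR-143 they were miR-208a (0.12), which comes from an intron of Myh6, then miR-151-5p (0.16) and miR-107 (0.17). miR-126-3p ranked 10 for miR-143 (0.22), ahead of its transcript partner miR-145, which ranked 28 (0.31). For miR-145 the closest were miR-322* (0.087), miR-22 (0.096) and miR-139-5p (0.14). The median difference over all 180 was 0.41 to 0.53, and the points share libraries and scaling.

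Other miRNAs known from endothelium and new vessel growth gave 1 call, higher in R719W, among the 10 tested beyond the miR-126 arms, beside 12.7% called higher over all miRNAs tested. miR-132, a growth factor-induced miRNA known to activate endothelial cells through p120RasGAP, rose from 49.7 ± 18.3 to 123 ± 55.0 CPM (SD, n = 3; adjusted p = 0.0325 by edgeR; log2 fold change 1.30 with an SE of 0.37). Its call was lost without WT replicate 1 (adjusted p = 0.171), WT replicate 3 (0.156) or R719W replicate 3 (0.0777), and with DESeq2's size factors (0.0533). Without R719W replicate 1 it remained called at a log2 fold change of 0.84. The other 9 were not called, among them the most abundant, miR-130a at 910 ± 41.7 and 802 ± 175 CPM and miR-20a at 557 ± 79.9 and 396 ± 121 CPM (SD, n = 3). miR-210, the miRNA best known from the response to low oxygen, stood at 77.3 ± 3.87 and 109 ± 30.9 CPM (SD, n = 3; adjusted p = 0.163 by edgeR). The 10 had a median log2 fold change of −0.06, beside 0.10 over all miRNAs tested. miR-222, miR-92a, miR-18a, miR-19a the miR-296 entries and several passenger arms had too few reads to be tested.

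Of the 12 miRNAs tested from the smooth muscle and vessel wall list beyond miR-143 and miR-145, 2 rose and 10 were not called, beside 12.7% called higher over all miRNAs tested. Both were arms of the miR-21 hairpin, which is also a fibroblast marker, and the fibroblast markers were higher in R719W as given above. miR-21, a miRNA of injured vessel walls and activated fibroblasts, rose from 315 ± 17.7 to 1169 ± 268 CPM (SD, n = 3; adjusted p = 4.02e-04 by edgeR; log2 fold change 1.89 with an SE of 0.22). miR-21* rose from 2.84 ± 1.08 to 14.3 ± 3.72 CPM (SD, n = 3; adjusted p = 0.0137 by edgeR). In WT replicates 1, 2 and 3 miR-21* stood at 4.06, 2.44 and 2.02 CPM. These values are at or below the level of 3 reads in those libraries (4.06, 3.66 and 3.03 CPM). It thus passed the filter on low counts through its R719W reads only, and the size of its rise is poorly known. The call for miR-21 held in all 6 fits that left out 1 library, whereas that for miR-21* was lost without WT replicate 1 (adjusted p = 0.0678) or WT replicate 3 (0.0817), and miR-21* was too low to be tested without R719W replicate 2. The most abundant uncalled entries were miR-26a, at 24785 ± 2951 and 20513 ± 3505 CPM, and miR-29b, at 12341 ± 1210 and 11072 ± 2222 CPM (SD, n = 3). The 12 had a median log2 fold change of 0.42, beside 0.10 over all miRNAs tested. Both miR-21 arms and miR-24, miR-24-1* and miR-24-2* (0.63, 0.91 and 0.64, none of these 3 called) are among them. Entries of the same hairpins thus count more than once in this median. With miR-143 and miR-145 included, 8 of the 14 tested had a positive value and 6 a negative one.

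**Figure D4:**
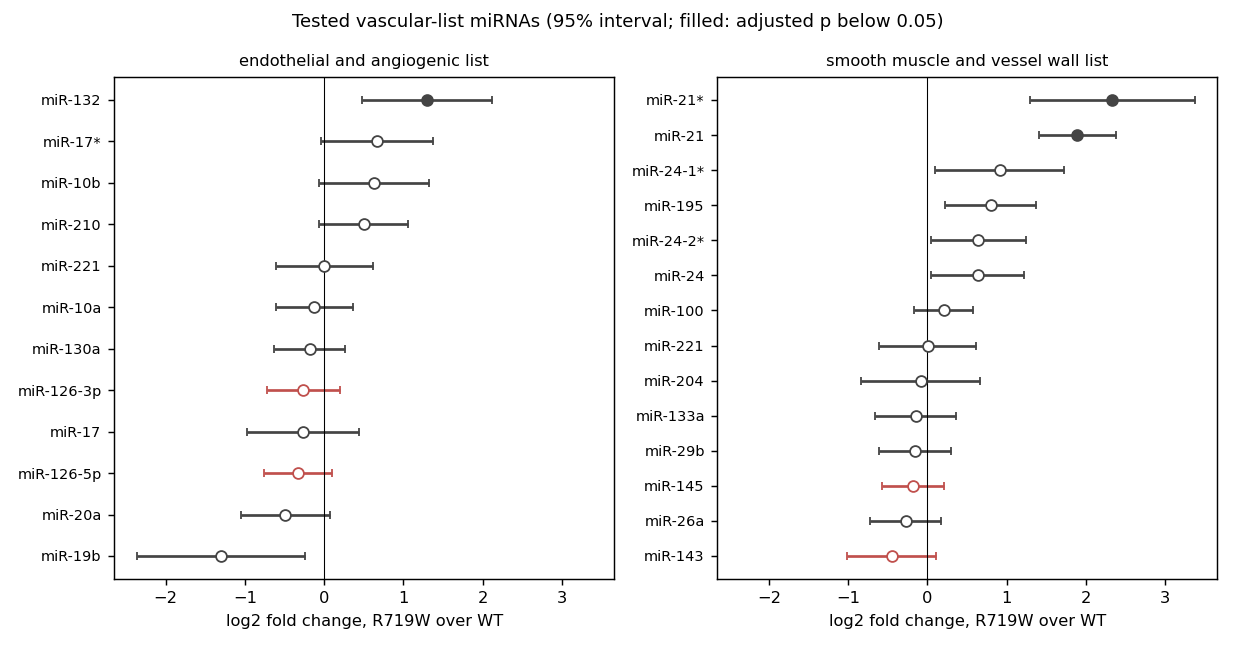
Log2 fold change of R719W over WT with 95% interval (x axis) for the tested miRNAs of the endothelial list (left) and the smooth muscle list (right), filled where edgeR's adjusted p was below 0.05 and in red for the vascular members. miR-132 at 1.30, miR-21 at 1.89 and miR-21* at 2.34 are the filled points, and all 4 red points are open.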

How the data were processed

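Small-RNA libraries of 6 left ventricles were multiplexed from total RNA, per the labels' protocols. The authors deposited a table per genotype with whole-number read counts and a normalized value equal to CPM over the 698 listed miRNAs (relative gap at most 4.6e-15), per the file headers and values. The sources used here do not give the aligner, the mismatches allowed or the annotation release. Columns were matched to samples by barcode.

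Counts were tested in R 4.3.3 with edgeR 4.0.16 (filterByExpr with minimum count 10 and total 15, TMM, glmQLFit and glmQLFTest, two-sided, Benjamini-Hochberg over 181 miRNAs, threshold 0.05), on libraries of 765425 to 1192020 reads. Each standard error was the size of the log2 fold change over the square root of F. Log2 levels for likeness and deviations had 0.5 CPM added. Ratios were compared by exact permutation over libraries. The edgeR step was tested on simulated data. Alternatives used DESeq2 1.42.0, limma 3.58.1, other scalings, filters and pseudocounts, the replicate block and leaving out libraries. Reads carry no molecular identifiers, so counting errors cover counting only. Named were the members, the called and up to 2 abundant uncalled entries of both lists, and the 3 closest miRNAs of each member; miR-210, the untested entries and let-7a were chosen after their values were seen. Members and lists were chosen with earlier results of these data known.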

Additional observations from a re-analysis of the deposited data

How the results depend on the processing

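Over 17 alternatives, the 4 vascular miRNAs kept their direction and stayed uncalled in 62 of 68 fits. miR-145 turned to 0.030 with library totals alone and to 0.029, 0.029 and 0.029 with limma on the deposited CPM plus 1, 0.5 or 10, none called. miR-126-5p was called without R719W replicate 1 (−0.50), and miR-143 with WT replicate 2 and R719W replicate 1 both left out (−0.49); the cause was not tested. Leaving out 1 library gave log2 fold changes of −0.47 to −0.16 for miR-126-3p, −0.50 to −0.26 for miR-126-5p, −0.68 to −0.30 for miR-143 and −0.32 to −0.15 for miR-145. It gave 4 to 56 called miRNAs, against 36 with all libraries. The count was 20 with library totals without the 5 most abundant miRNAs and 22 with a filter of 100 reads in 3 libraries, where fewer miRNAs were tested. The differences in log2 ratio ranged over −0.13 to 0.33 for miR-126-3p to miR-126-5p, 0.067 to 0.47 for miR-145 to miR-143 and −0.021 to 0.32 for miR-126-3p to miR-143.

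Samples sharing a replicate number did not deviate together (correlations of −0.19, −0.39 and 0.01), so the numbers were not taken as pairs. With the replicate block the 4 values were −0.26, −0.33, −0.43 and −0.18, none called, and 30 miRNAs were called in all. Among the vascular entries, counting error was largest for miR-145 and for miR-145*, which was not tested.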
